A study of Arabidopsis thaliana with 12 samples.

Results

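The plastid genome of Arabidopsis thaliana was represented by 88 genes among the 23337 of the deposited expression table, chosen as every gene whose identifier starts with ATCG. They encode subunits of the photosystems, the cytochrome b6f complex, the ATP synthase, the NDH complex (a plastid NAD(P)H dehydrogenase-like complex), the large subunit of Rubisco, a bacterial-type RNA polymerase, ribosomal proteins and a few others. No row of the table held a plastid ribosomal or transfer RNA. All 88 passed the filter on low counts, and the lowest count of a member in any library was 27. Genes are called here by their usual plastid names, which for 8 of them differ from the symbols in the table (PB is atpB, PSBG is ndhK, YCF6 is petN, YCF9 is psbZ, YCF10 is cemA, ORF31 is petL, PCLPP is clpP and YCF5 is ccsA).

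The libraries were made from polyadenylated RNA of seeds at 1 day after imbibition, following stratification at 4 °C for 2 days and plating on agar with 1/2 MS salts. The groups were the wild type (WT) without heat (WT normal), WT given heat stress at 45 °C for 2 h (WT heat), the mutant atcyp18-1 without heat (atcyp18-1 normal) and the mutant with the same heat (atcyp18-1 heat), with 3 libraries each. The title of the series names alternative splicing under heat in the mutant relative to the WT as its subject. CYP18-1 encodes a cyclophilin, a peptidyl-prolyl isomerase that helps proteins fold. The labels give neither the nature of the mutant allele nor the accession of the WT, and do not say whether a group's libraries are separate seed batches. A p-value here therefore speaks of the spread among the libraries at hand, and that spread may be technical.

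Plastid genes are transcribed by a plastid-encoded polymerase with nuclear-encoded sigma factors and by nuclear-encoded phage-type polymerases, mostly as long units that are then cut, trimmed and spliced. Nuclear-encoded proteins decide how long each processed transcript lasts. In plastids, as in bacteria, an added poly(A) tail marks RNA for decay, in contrast to its role in the cytosol, so libraries of polyadenylated RNA hold the plastid RNA that came through the selection and not a known share of the whole. In seed, plastids are undifferentiated before they turn into chloroplasts in the light. In bulk RNA, fewer plastids or cells and less RNA in each cannot be told apart.

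Each library held between 7468922 and 10506481 counts over all genes. CYP18-1 (AT1G01940) stood at 22 ± 1.0 CPM (counts scaled to a library size of 1e6 after edgeR's TMM factor, as are all CPM here) in WT normal and 25.6 ± 0.55 in WT heat, against 1.93 ± 0.41 in atcyp18-1 normal and 3.37 ± 1.0 in atcyp18-1 heat (SD, n = 3 each), so the mutant libraries were low in the gene they are named for. Seed markers (storage protein and oleosin genes and the late embryogenesis abundant gene EM6) were all detected: the 5 listed summed to between 1608 and 2706 CPM in WT normal, between 1888 and 3496 in WT heat, 5993 and 7008 in atcyp18-1 normal, and 5067 and 8034 in atcyp18-1 heat. Every one of the 5 was called higher (adjusted p under 0.05 by edgeR's quasi-likelihood test) in atcyp18-1 normal than in WT normal, and 2 of 5 in the heated mutant. In heat, 3 of 5 were called higher in the WT and 1 of 5 in the mutant, against 25% and 22.9% of all genes tested. By genotype, 11.2% of all genes were higher in the mutant without heat and 8.17% with heat. The 3 endosperm markers summed to between 551 and 626 CPM in WT normal, between 487 and 544 in WT heat, 619 and 673 in atcyp18-1 normal, and 487 and 546 in atcyp18-1 heat. They parted in heat: 1 of 3 was called higher and 2 lower in each genotype, where 25.1% (WT) and 23.4% (mutant) of all genes were lower. By genotype 1 of 3 was called higher in the mutant and 0 lower, both without and with heat. The 2 nuclear markers of green tissue summed to between 754 and 870 CPM in WT normal, between 920 and 1049 in WT heat, 801 and 946 in atcyp18-1 normal, and 1071 and 1147 in atcyp18-1 heat. Of these, 1 of 2 was called higher with heat in the WT and 2 of 2 in the mutant. None of these 10 markers was at 0 in any library, and their part in the results on plastid genes was not tested.

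Plastid genes took 10.4, 10.8 and 11% of all counts in the WT normal libraries and 4.89, 4.46 and 5.04% in WT heat. In the mutant they took 10.1, 10.4 and 9.93% without heat and 5.27, 5.22 and 5.60% with heat. The heated and unheated libraries did not overlap in either genotype. The share of the 122 mitochondrial genes moved the other way, from between 4.39 and 4.62% in WT normal to between 6.77 and 7.59% in WT heat, and from between 5.40 and 5.88% in atcyp18-1 normal to between 7.74 and 8.44% in atcyp18-1 heat. These shares are descriptions of the libraries and carry no test.

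The fall of the plastid share was unequal among its genes. The gene psbA, for the D1 protein of the photosystem II reaction centre, made up 17.9 ± 0.70% of plastid counts in WT normal, 40.9 ± 3.1% in WT heat, 30.4 ± 2.2% in atcyp18-1 normal and 50.5 ± 1.5% in atcyp18-1 heat (SD, n = 3 each). The gene rbcL, for the large subunit of Rubisco, the carbon-fixing enzyme, made up 10.6 ± 0.081%, 18.6 ± 1.3%, 14.6 ± 1.0% and 20.1 ± 0.57% in the same order. As a percent of all counts, rbcL had means of 1.14 in WT normal, 0.89 in WT heat, 1.48 in atcyp18-1 normal and 1.08 in atcyp18-1 heat. The other 86 genes held 7.68 ± 0.21% of all counts in WT normal against 1.95 ± 0.16% in WT heat, and 5.57 ± 0.45% in atcyp18-1 normal and 1.58 ± 0.019% in atcyp18-1 heat. The plastid share as a whole was slightly larger in the heated mutant than in heated WT (log2 ratio 0.16), while without psbA and rbcL it was smaller (log2 ratio -0.30).

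**Figure D1:**
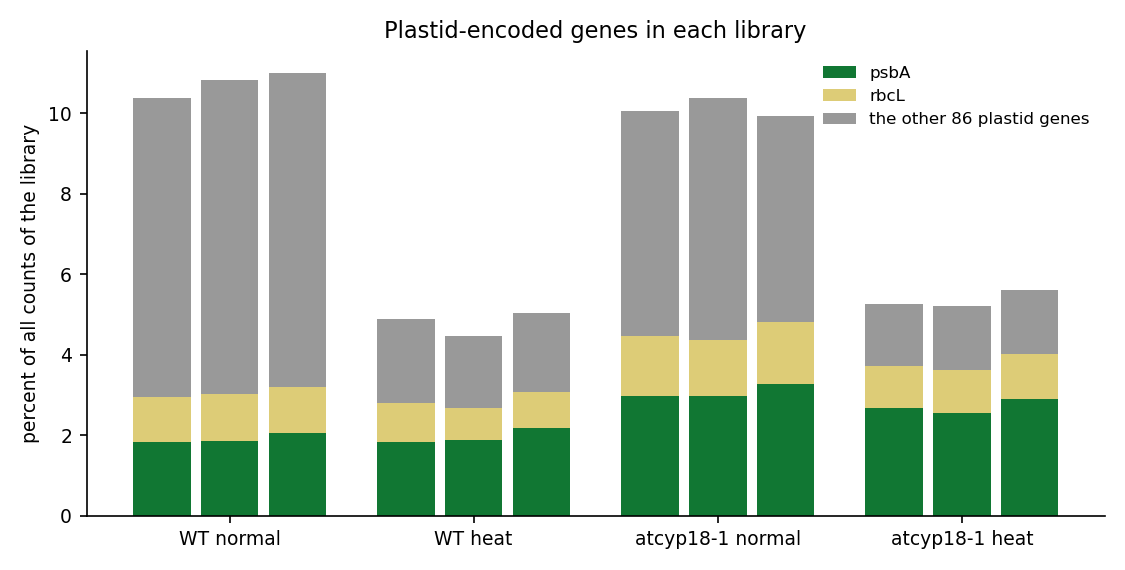
Percent of all counts of each library that fell on plastid genes, stacked as psbA, rbcL and the other 86 genes; each bar is 1 library. The bars of heated libraries end between 4.46 and 5.60%, those of unheated libraries between 9.93 and 11%, and most of the difference lies in the grey part.

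The levels per kilobase of exon differed widely between members. The 3 highest in WT normal were psbA at 16013 ± 1172 CPM per kb, rbcL at 7009 ± 289 and clpP, the plastid-encoded subunit of the Clp protease, at 4386 ± 312 (SD, n = 3). The lowest was ndhF, an NDH subunit, at 43.6 ± 1.2 CPM per kb. In atcyp18-1 heat psbA reached 29155 ± 2758 CPM per kb, while clpP stood at 2555 ± 135. The coding sequence of psbA lies at 383 to 1444 on the minus strand of the plastid chromosome in TAIR10.1. A stretch upstream of it is shown because psbA took the largest share of plastid counts, with the letters TTGACA and TATACT, which resemble the promoter elements of bacteria, in capitals.

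psbA upstream, plastid chromosome 1525 to 1565, minus strand: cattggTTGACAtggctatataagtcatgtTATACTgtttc

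The first T of TTGACA lies 115 bases before the start codon, and 18 bases separate the capitals. Of the 83 members with an entry in the TAIR10.1 annotation, 9 (10.8%) had TTGACA on their own strand in the 250 bases before the start codon and 4 (4.82%) on the opposite strand. The counts for TATACT were 8 (9.64%) and 6 (7.23%), and psbA was the only member with both on its own strand. A match describes letters and not a working promoter.

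Almost all plastid genes had lower scaled counts in the heated WT libraries of polyadenylated RNA than in the unheated ones. Of the 88 members, 79 were called lower in WT heat than in WT normal, 1 was called higher and 8 were not called, where called means a Benjamini-Hochberg adjusted p under 0.05 over all 17296 genes tested with edgeR. Of all genes tested, 25.1% were called lower and 25% higher. The median log2 change of the members was -2.04, against 0.00 over all genes tested. In 80 members the WT heat libraries lay below all WT normal libraries, in 1 they lay above and in 7 they overlapped, against 28.5% of all genes below and 27.5% above. With 7 pairs of genes that lie in both copies of the inverted repeat of the plastid chromosome, some reads stand behind more than 1 member: the pair members had count ratios between 0.94 and 1.04 in every library. Without the second copies, 72 of 81 members were called lower and 1 higher.

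In the mutant too most members were lower in heat. Of the 88 members 80 were called lower in atcyp18-1 heat than in atcyp18-1 normal, none higher and 8 not called, against 23.4% of all genes lower and 22.9% higher. The median log2 change of the members was -2.15, and in 82 of them the heated libraries lay below all unheated ones, against 27.5% of all genes. By plain library size, which shifted the median of all genes by -0.21 in the WT and -0.23 in the mutant, 85 and 87 members were called lower and none higher, while among all genes 2505 were called higher and 6591 lower in WT heat, and 1925 and 6496 in atcyp18-1 heat.

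**Figure D2:**
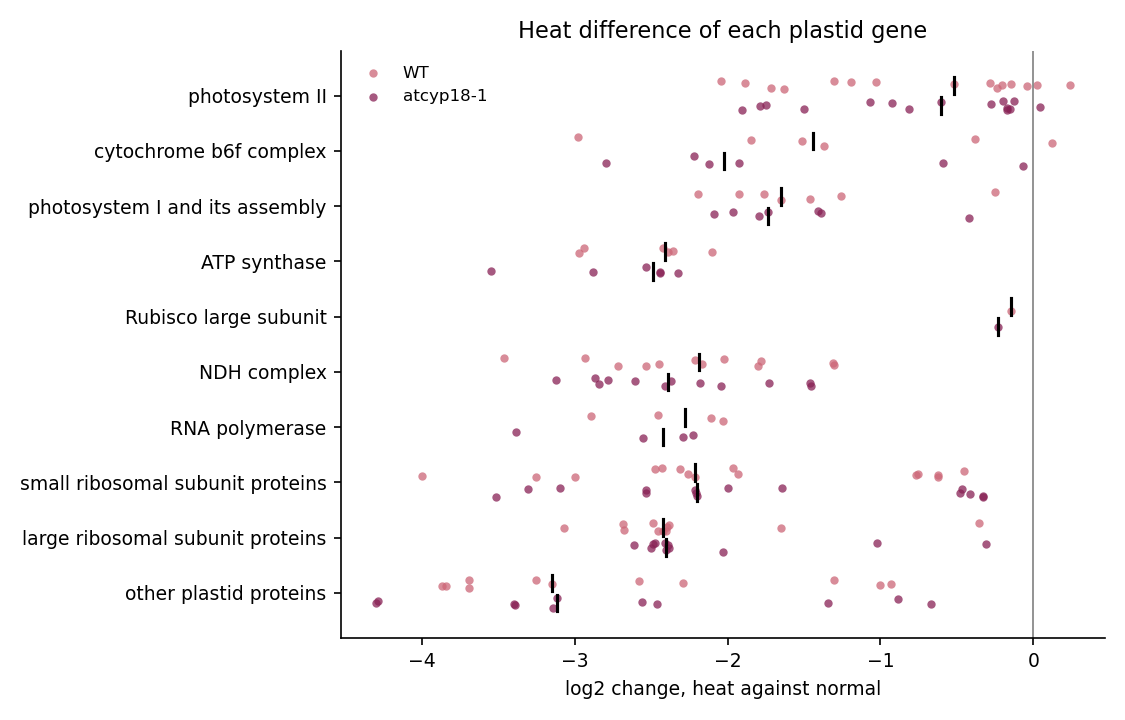
Log2 change of each plastid gene, heat against normal, in WT and atcyp18-1, by functional group; points are genes (spread vertically for sight only) and black bars are group medians. Photosystem II genes fall between -2.04 and 0.24 in the WT, and the other plastid proteins reach -3.87 there and -4.30 in the mutant.

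Photosystem II, which splits water in the light reactions, had the smallest median difference in heat among the groups of more than 1 gene: -0.52 in the WT and -0.60 in the mutant on the log2 scale, over 15 genes. Of these, 1 was called higher and 8 lower in WT heat, and 0 higher and 9 lower in atcyp18-1 heat. The only member called higher in WT heat was psbA. It had 16100.1, 16493 and 18426 CPM in WT normal and 18538, 18584 and 23132 CPM in WT heat. On this scale the heat libraries lay just above the highest unheated one, while as a percent of all counts, without the TMM factor, psbA had 1.84, 1.87 and 2.05 in WT normal and 1.82, 1.88 and 2.18 in WT heat, which overlap. The log2 change was 0.24 ± 0.09 (SE; adjusted p = 0.027, edgeR), and the call was lost with plain library size (0.03, adjusted p = 0.738) and without the low-count filter (0.19, adjusted p = 0.249). It was also lost without WT normal 1 (adjusted p = 0.116), WT normal 2 (adjusted p = 0.0777) or WT heat 3 (adjusted p = 0.225). In the mutant psbA had 28917, 28342 and 32707 CPM without heat and 30816, 28108 and 33962 with heat, overlapping groups with a log2 change of 0.05 ± 0.09 (adjusted p = 0.69), and by plain library size the change was -0.18 (adjusted p = 0.0324).

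The psbE-psbF-psbL-psbJ unit, for cytochrome b559 and small subunits beside it, changed by between -0.20 and 0.02 log2 in WT heat with 0 of 4 called, and by between -0.28 and -0.15 in the mutant with 1 of 4 called lower, psbJ. By plain library size psbE was called lower in WT heat (-0.41, adjusted p = 0.000382, edgeR) and in atcyp18-1 heat (-0.40, adjusted p = 0.000612). In WT heat psbE was also called lower with a replicate block (adjusted p = 0.047) and without WT normal 1 (adjusted p = 0.0456) or WT heat 1 (adjusted p = 0.0115). In the psbB-psbT-psbH-petB-petD unit the members parted. The gene psbB, for the CP47 antenna protein, changed by -0.24 ± 0.09 in WT heat (adjusted p = 0.024). That call was lost without WT normal 3 (-0.19, adjusted p = 0.0988) or WT heat 2 (-0.13, adjusted p = 0.187). The gene petB, for cytochrome b6, had 603, 613 and 643 CPM in WT normal and 706, 558 and 761 in WT heat, which overlap. Between them in the same unit, psbH, for a small phosphoprotein of photosystem II, had 130, 132 and 139 CPM in WT normal and 54.8, 47.7 and 59.3 in WT heat. It lay lower in every heated library, with a log2 change of -1.31 ± 0.09 (adjusted p = 9.5e-11) in the WT and -1.50 ± 0.09 (adjusted p = 1.1e-11) in the mutant. The gene psbN lies on the opposite strand inside this unit, and as no strand setting of the counting is given, its reads cannot be told apart from those of the unit.

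The largest falls in photosystem II were those of psbI at -2.04, psbZ at -1.89 and psbK at -1.72 in WT heat, while psbM at -0.52 and psbT at -0.29 were not called. The genes psbD and psbC, for the D2 and CP43 proteins, which overlap each other, fell by 1.19 and 1.03 log2 in the WT and by 0.93 and 0.81 in the mutant. All 7 genes of photosystem I and its assembly fell in both genotypes, with medians of -1.65 and -1.73. The smallest of these falls was that of ycf3, an assembly factor, at -0.25 ± 0.08 in the WT (adjusted p = 0.010), and the reaction centre genes psaA and psaB fell by 1.46 and 1.92 in the WT. In the cytochrome b6f complex, which links the photosystems, 5 of 6 genes fell in each genotype and petB was not called in either. The gene petN, for a small subunit of that complex, had 228, 242 and 259 CPM in WT normal and 28.0, 28.2 and 36.2 in WT heat, a fall of 2.98 log2.

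All 6 ATP synthase genes, all 12 NDH members (ndhB counted in both repeat copies) and all 4 RNA polymerase genes were lower in heat in both genotypes. Their medians in WT heat were -2.41, -2.19 and -2.28, and in atcyp18-1 heat -2.49, -2.39 and -2.42 on the log2 scale. The gene atpF, for a stalk subunit of the ATP synthase, had 893, 965 and 983 CPM in WT normal and 128, 109 and 134 in WT heat. In the mutant it had 661, 777 and 612 CPM without heat and 62.7, 55.8 and 57.0 with heat, the largest fall there after the orf77 copies (log2 change -3.54 ± 0.10, adjusted p = 8.9e-17). Among NDH genes the fall ran from -1.31 for ndhB to -3.46 for ndhC in WT heat. The gene rpoC2, for the largest polymerase subunit, fell by 2.89 in the WT and by 3.39 in the mutant.

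Ribosomal protein genes, second repeat copies included, were called lower in WT heat in 26 of 26 cases and in atcyp18-1 heat in 25 of 26, with medians of -2.39 and -2.30. The gene rps16 had the largest fall of all members in the WT, from 72.3, 65.2 and 65.4 CPM to 5.04, 3.91 and 3.74, with a log2 change of -4.00 ± 0.13 (adjusted p = 6.4e-16). The copies of rps7 and the 3 rows of rps12 changed by between -0.76 and -0.46 in the WT, and rpl20 changed by -0.36 ± 0.07 (adjusted p = 0.00024). The other plastid proteins held the remaining large falls. The orf77 gene in the inverted repeat had 298, 309.9 and 306 CPM in WT normal (first copy) and 20.7, 18.1 and 24.6 in WT heat, and its copies changed by -3.84 and -3.87 log2 in the WT and by -4.28 and -4.30 in the mutant. The long ycf2 gene, whose product helps to import proteins into plastids, fell by 3.69 in the WT. In contrast clpP fell by 0.93 ± 0.08 in the WT (adjusted p = 4.4e-09) and by 0.67 ± 0.08 in the mutant (adjusted p = 5.1e-07).

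When each library was scaled to its own plastid counts, which sets the members against their sum, 15 of 88 members were called higher and 66 lower in WT heat, and 14 and 67 in atcyp18-1 heat. By that scaling 82.6% of all genes were called higher and 1.54% lower in the WT, and 68.1% and 3.61% in the mutant. The median log2 change was 0.95 over all genes tested and -1.08 over the members in the WT, and 0.69 and -1.46 in the mutant. The members that rose relative to the plastid total in WT heat included psbA at 1.19 and rbcL at 0.81 log2, together with all 4 genes from psbE to psbJ, and 4 of 5 genes of the psbB unit. With psbA left out of the total 22 members were higher in the mutant, and with psbA, rbcL and the second repeat copies left out 28 members were higher in the WT and 24 in the mutant. Against all genes rbcL was not higher in heat. By the TMM fit it changed by -0.15 log2 in the WT (not called) and by -0.23 in the mutant (called lower). The mutant call was lost without atcyp18-1 normal 3, atcyp18-1 heat 1 or atcyp18-1 heat 2. By plain library size rbcL was called lower in WT heat (-0.35, adjusted p = 9.62e-05, edgeR).

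In the absence of heat the mutant differed from the WT in both directions. Of the 88 members, 19 were called higher and 43 lower in atcyp18-1 normal than in WT normal, against 11.2% of all genes higher and 12.2% lower. The median log2 difference of the members was -0.28. Groups did not overlap in 22 members that were higher and 46 that were lower, against 19.5% and 20.6% of all genes. Photosystem II genes were called higher in 10 of 15 cases and lower in none (median 0.38), cytochrome b6f genes higher in 5 of 6 and lower in 1, while RNA polymerase genes were lower in 4 of 4 (median -0.62) and ribosomal protein genes lower in 22 of 26 and higher in none (median -0.67). Of the 16 members with a group II intron 2 were higher and 11 lower, and of the other 72 members 17 were higher and 32 lower. These counts take the second repeat copies, which share reads with the first, as members of their own. Without the second copies, 19 of 81 members were higher and 38 lower. By plain library size, which shifted the median of all genes by -0.14 without heat and -0.18 with heat, 13 members were higher and 47 lower without heat and 12 and 47 with heat, beside 831 higher and 3694 lower among all genes without heat and 578 and 3502 with heat. Of the 2 nuclear green-tissue markers, CAB2 was higher in the mutant, by 1.82 log2 without heat (adjusted p = 0.00036) and 2.05 with heat (adjusted p = 0.00011). The other, RBCS1A, was not called (0.11, adjusted p = 0.31, and 0.17, adjusted p = 0.12). Of the seed markers above, 5 of 5 were higher without heat and 2 of 5 with heat. Their part in the genotype differences was not tested.

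The gene psbA had the largest rise among members whose groups did not overlap, from 16100.1, 16493 and 18426 CPM in WT normal to 28917, 28342 and 32707 in atcyp18-1 normal. Every mutant library was above every WT library, and the log2 difference was 0.82 ± 0.09 (adjusted p = 2.5e-06). The gene petN had 228, 242 and 259 CPM in the WT and 407, 386 and 428 in the mutant, a log2 difference of 0.74 ± 0.10 (adjusted p = 4.1e-05). For petG, another small subunit of the b6f complex, the values were 87.0, 77.0 and 77.8 against 150.1, 141 and 107 CPM, a log2 difference of 0.72 ± 0.11 (adjusted p = 0.00012). The fitted difference of petL was larger, at 1.19 ± 0.33 (adjusted p = 0.013), but its mutant libraries had 67.0, 62.3 and 19 CPM and overlapped the WT at 28.4, 23.2 and 13.9. The petL call, 1 of the 5 in this complex, was lost with DESeq2 (adjusted p = 0.134) and without WT normal 3 (adjusted p = 0.068), atcyp18-1 normal 1 (adjusted p = 0.0821) or atcyp18-1 normal 2 (adjusted p = 0.0709). The same mutant library (atcyp18-1 normal 3) was the lowest of its group for psbM, psbT, rpl32 and matK and the highest for rpl33. The gene rbcL had 9625, 10232 and 10421 CPM in WT normal and 14402, 13418 and 15511 in atcyp18-1 normal, a difference of 0.52 ± 0.08 (adjusted p = 9.2e-05). The only b6f gene that was lower was petA, for cytochrome f, at -0.49 ± 0.08 (adjusted p = 0.00022).

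The deepest differences lay in the rpl23 to rpoA unit, a long row of ribosomal protein genes that ends with the gene for the alpha subunit of the plastid RNA polymerase. All 11 genes of the unit were called lower in the mutant without heat and all 11 with heat, with medians of -1.16 and -1.36, leaving out the second repeat copies of rpl23 and rpl2, which lie outside the unit and share reads with the first. The gene rps3, for a small-subunit protein, had 1085, 1157 and 1169 CPM in WT normal and 313, 384 and 309.9 in atcyp18-1 normal. No mutant library came near the WT range, and the log2 difference was -1.76 ± 0.10 (adjusted p = 3.1e-10). The gene rpl22, which overlaps rps3, had 886, 933 and 952 against 276, 338 and 291 CPM (log2 -1.61 ± 0.10, adjusted p = 5.2e-10). For rpl16 the values were 811, 911 and 890.1 against 302, 357 and 313 CPM (log2 -1.43 ± 0.09, adjusted p = 8.5e-10).

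The difference was not level along the unit. Among the genes given here, in the order of transcription, it was -0.47 for rpl23, -0.65 for rpl2, -0.98 for rps19, -1.61 for rpl22, -1.76 for rps3, -1.43 for rpl16, -1.34 for rpl14, -1.16 for rpl36 and -1.14 for rpoA, with SE between 0.07 and 0.10. Of these the first had the smallest differences, and rpl22 and rps3 the largest. Of these, rpl23 and rpl2 are also present in the second copy of the inverted repeat. In heat these genes ran from -0.27 for rpl23 to -1.66 for rps3. The order along the unit is a description, as neighbouring genes share transcripts and were not tested against each other.

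**Figure D3:**
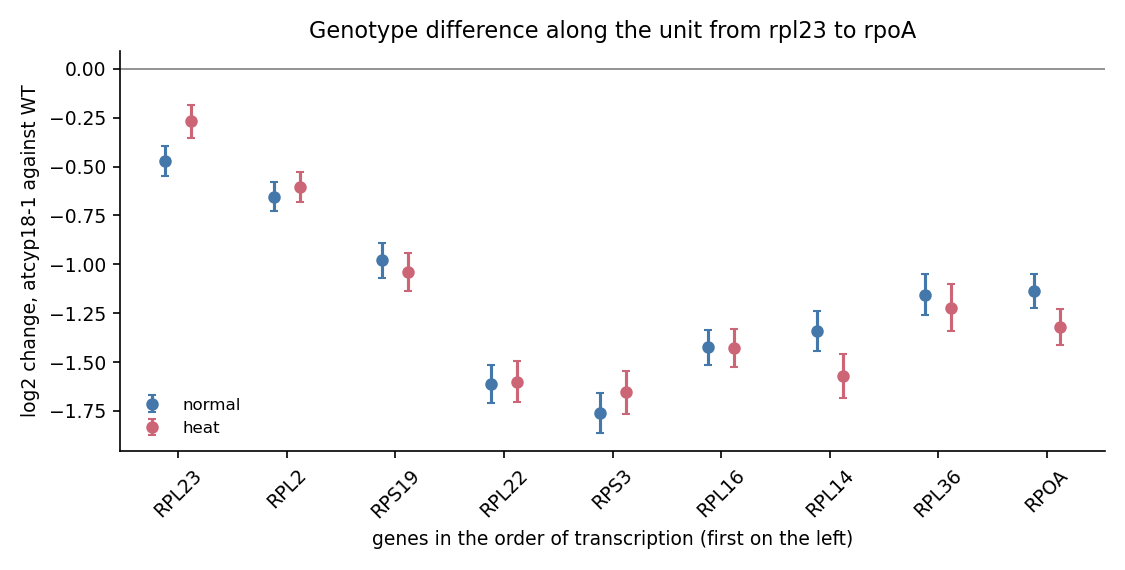
Log2 difference between atcyp18-1 and WT (fitted value with its SE) for 9 genes of the unit from rpl23 to rpoA in the order of transcription, without heat and with heat. Every point is below 0, from -0.27 for rpl23 in heat to -1.76 for rps3 without heat.

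Among the other units given here, only the ndhH to ndhD unit held calls in both directions. In the ndhH to ndhD unit, the upstream genes ndhH, ndhA, ndhI and ndhG were lower in atcyp18-1 normal by 0.71, 0.52, 0.64 and 0.33 log2, while ndhD at the far end was higher, with 953, 963 and 939.7 CPM in the WT and 1255, 1249 and 1075 in the mutant (0.33 ± 0.09, adjusted p = 0.0093). By plain library size ndhD was not called (0.19, adjusted p = 0.0878). In the psaI-ycf4-cemA-petA unit, 3 of 4 genes were lower and psaI was not called. In the unit of rps2 and the atpI, atpH, atpF and atpA genes, 4 of 5 were lower and atpH was not called. The 3 genes of the psaA-psaB-rps14 unit had 0 calls, between 0.03 and 0.20. The psbD-psbC-psbZ unit had 3 of 3 genes higher, between 0.25 and 0.59.

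Under heat the mutant again differed in both directions. In atcyp18-1 heat, 15 of 88 members were called higher and 39 lower than in WT heat, against 8.17% of all genes higher and 8.49% lower, with a median of -0.20 for the members. Groups did not overlap in 16 members that were higher and 40 that were lower, against 15% and 17.6% of all genes. Without the second repeat copies, 15 of 81 members were higher and 34 lower. Photosystem II genes were higher in 9 of 15 cases and lower in none (median 0.52), RNA polymerase genes lower in 4 of 4 (median -0.93), and ribosomal protein genes, second copies included, lower in 20 of 26 with 1 higher.

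The largest rise was that of rpl33, for a large-subunit protein, with 30, 23.5 and 29.1 CPM in WT heat and 88.4, 97.1 and 82.2 in atcyp18-1 heat. The mutant libraries were all above the WT, with a log2 difference of 1.69 ± 0.27 (adjusted p = 0.00021). The gene petN followed with 28.0, 28.2 and 36.2 against 63.6, 45.4 and 67.0 CPM (0.93 ± 0.12, adjusted p = 3.8e-05). For psbM, a small photosystem II subunit, the values were 39.5, 33.9 and 39.2 against 41.3, 79.0 and 84.6 CPM (0.85 ± 0.24, adjusted p = 0.021). The lowest mutant value lay just above the highest WT value, and without WT heat 2, atcyp18-1 heat 2 or atcyp18-1 heat 3 psbM was no longer called (adjusted p = 0.0718, 0.0705 and 0.12), nor with DESeq2 (adjusted p = 0.0808). The largest falls were again in the rpl23 to rpoA unit. The gene rps3 had 270.4, 213 and 206 CPM in WT heat and 65.4, 71.9 and 81.9 in atcyp18-1 heat (log2 -1.66 ± 0.11, adjusted p = 2.4e-09). For rpl22 they were 210.3, 162 and 155 against 52.9, 61.3 and 60.0 CPM (-1.60 ± 0.11, adjusted p = 2.7e-09), and for rpl14 they were 194, 151 and 136 against 51.1, 52.2 and 58.7 CPM (-1.57 ± 0.11, adjusted p = 6.1e-09). In heat, psbA still differed between genotypes, by 0.62 ± 0.09 (adjusted p = 7.1e-05), and ycf4, for an assembly factor of photosystem I, by -1.21 ± 0.10 (adjusted p = 1.3e-07).

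Scaled to the plastid total, 15 members were higher and 44 lower in atcyp18-1 normal, against 5.49% and 11.4% of all genes, and 8 and 55 in atcyp18-1 heat, against 1.70% and 39.1%. With psbA, rbcL and the second repeat copies left out of the total these became 37 and 28 without heat, and 21 and 31 with heat. The genes of the rpl23 to rpoA unit were lower in the mutant relative to the plastid total in 11 of 11 cases in each condition. By the full plastid total, the median log2 difference without heat was -0.05 over all genes tested and -0.33 over the members. With heat these medians were -0.34 and -0.51.

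The heat effect itself differed between genotypes in few members. The interaction of heat and genotype was called for 4 of 88 members, 2 higher and 2 lower, against 0.630% and 0.451% (1.08% in either direction) of all genes. The gene rpl33 had the largest interaction. It had 229.5, 236 and 229 CPM in unheated WT, 30, 23.5 and 29.1 in WT heat, 58.0, 84.2 and 190.3 in atcyp18-1 normal, and 88.4, 97.1 and 82.2 in atcyp18-1 heat. In the WT the heated libraries lay far below the unheated ones, with a change of -3.07 ± 0.26 (adjusted p = 6.0e-09). In the mutant the groups overlapped, with a change of -0.31 ± 0.24 (adjusted p = 0.31), which turned to 0.33 (adjusted p = 0.0363) without atcyp18-1 normal 3. The interaction was 2.76 ± 0.36 on the log2 scale (adjusted p = 0.0012), and the unheated mutant libraries themselves ran from 58.0 to 190.3 CPM. Its neighbours in the psaJ-rpl33-rps18 unit had interactions of 0.40 and 0.16, neither called.

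The gene rpl20, which lies on the opposite strand beyond rps18, had 387, 391 and 443 CPM in WT normal and 328, 305 and 322 in WT heat. In the mutant it had 234, 258 and 245 CPM without heat and 125, 117 and 121 with heat. The groups did not overlap in either genotype, and the fall was larger in the mutant, at -1.02 ± 0.07 against -0.36 ± 0.07 in the WT (interaction -0.67 ± 0.10, adjusted p = 0.0039). For atpF the interaction was -0.61 ± 0.13 (adjusted p = 0.031). For ycf1, in the full-length copy, which encodes a large protein of the envelope membrane, it was 0.59 ± 0.14 (adjusted p = 0.044), with 1194, 1233 and 1152 CPM in unheated WT, 146, 129 and 129 in WT heat, 528, 584 and 464 in atcyp18-1 normal, and 78.9, 82.5 and 106 in atcyp18-1 heat. The atpF call was lost in 8 of 19 alternatives (adjusted p up to 0.102), which included leaving out WT normal 1 or 2, WT heat 3, atcyp18-1 normal 1 or 2, or atcyp18-1 heat 1 or 3. The ycf1 call was lost in 11 of 19 (adjusted p up to 0.127), which included leaving out any WT normal library, WT heat 2 or 3, atcyp18-1 normal 1 or 3, or atcyp18-1 heat 1 or 3, while rpl33 and rpl20 kept theirs in 19 of 19. Scaled to the plastid total, 1 member was called higher and 28 lower for the interaction, against 0.382% and 9.23% of all genes, and the 28 became between 11 and 18 without any 1 of WT normal 1, 2 or 3, WT heat 1, atcyp18-1 normal 1 or 2, or atcyp18-1 heat 1 or 3. This scaling shifted genes in general: the median interaction was -0.285 over all genes tested and -0.295 over the members.

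**Figure D4:**
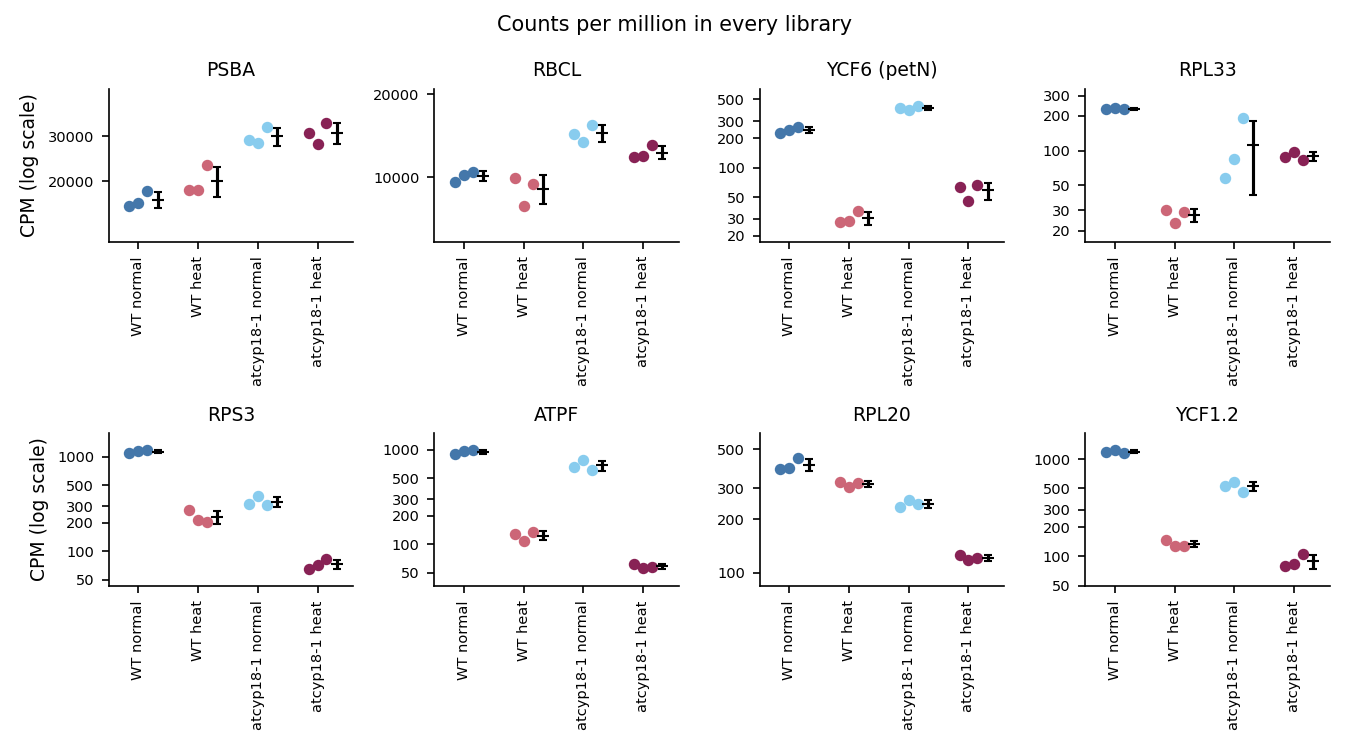
CPM of 8 plastid genes in every library, on a log scale, with the group mean and SD beside the points. Points of psbA lie between 16100.1 and 33962 CPM and those of rps3 between 65.4 and 1169. The WT heat libraries of rpl33 lie below those of the heated mutant.

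The deposited tables of intron retention list only introns that the authors called between a pair of groups, at a ratio of at least 1.70 between group means and an unadjusted p under 0.05. Plastid introns are group II introns, which fold into a ribozyme-like structure and are spliced with the help of nuclear-encoded proteins. Of the 88 members 16 are known to carry such introns. Plastid introns were 1 of 2488 events listed for heat in the WT and 5 of 2458 for heat in the mutant. Between genotypes they were 1 of 282 without heat and 1 of 310 with heat. The tables held introns of 5 distinct genes, all of which match introns of the TAIR10.1 annotation base for base: rpoC1 (21862 to 22652), clpP (70945 to 71811, the first intron of clpP in the direction of transcription), rpl16 (81588 to 82643), rpl2 (84772 to 85453) and ndhB (95703 to 96387, with its second copy at 142262 to 142946). The 5′ boundaries are printed because these introns are of the group II kind, whose first bases are conserved and start with GTG in DNA letters. Each line runs from exon into intron on the coding strand, with the first 5 intron bases in capitals.

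rpoC1 intron, 21862 to 22652, minus strand: gtatactgcgatGTGTGatttgatcgaaat
clpP first intron, 70945 to 71811, minus strand: ggttgacatataGTGCGacttgtcagatat
rpl16 intron, 81588 to 82643, minus strand: gctatgcttagtGTGTGactcgttggttta
rpl2 intron, 84772 to 85453, minus strand: gccctacctttgAGTGCggtttgaactatt
ndhB intron, 95703 to 96387, minus strand: gtatacgaaggaGTGCGgttcgtttgagaa

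All but rpl2 start with GTG, and in rpl2 the annotated boundary lies 1 base before such a start.

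Per library, the authors divided the reads in an intron by the mean over its flanking exons. For the first intron of clpP, the authors' tables gave ratios in all 12 libraries. They were 1.055, 0.978 and 0.997 in unheated WT, 0.803, 0.801 and 0.743 in WT heat, 0.576, 0.604 and 0.421 in atcyp18-1 normal, and 0.289, 0.304 and 0.272 in atcyp18-1 heat. No group overlapped another, and the order was WT normal, WT heat, atcyp18-1 normal, atcyp18-1 heat from high to low. In the authors' deposited table the mutant and WT differed 1.89-fold without heat (authors' p = 0.0069) and 2.71-fold with heat (authors' p = 0.00026), and the mutant changed 1.85-fold with heat (authors' p = 0.046). The clpP gene counts were not called between genotypes (log2 -0.11 ± 0.08 without heat, adjusted p = 0.33, and 0.15 ± 0.08 with heat, adjusted p = 0.20, edgeR). Scaled intron reads alone were 10296 ± 969 in WT normal and 5102 ± 1239 in atcyp18-1 normal (SD, n = 3).

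The other listed introns went the opposite way. In rpoC1 the ratio rose from 0.463, 0.459 and 0.434 in WT normal to 0.739, 0.903 and 0.716 in WT heat (1.74-fold in the authors' deposited table, p = 0.027). In the mutant, the ratio of rpl16 rose from 1.421, 1.407 and 1.298 to 2.295, 2.306 and 2.531 with heat (1.73-fold in the authors' deposited table, p = 0.0015). The ratio of rpl2 rose from 1.302, 1.241 and 1.249 to 2.37, 1.92 and 2.23 (1.72-fold in the authors' deposited table, p = 0.019). For ndhB it rose from 1.01, 1.00 and 0.961 to 1.89, 1.77 and 2.02 (1.91-fold in the authors' deposited table, p = 0.0045), and for its second copy, which shares its reads, the authors' values were nearly the same. The heated groups lay above the unheated ones in each of these introns. The intron reads themselves did not rise: in rpoC1 the scaled intron reads were 4059 ± 137 in WT normal against 1177 ± 109 in WT heat, and in rpl16 2157 ± 401 in atcyp18-1 normal and 589 ± 38 in atcyp18-1 heat. Exact permutation tests of 3 libraries against 3 cannot go below p = 0.10, so none was added to the authors' p-values.

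**Figure D5:**
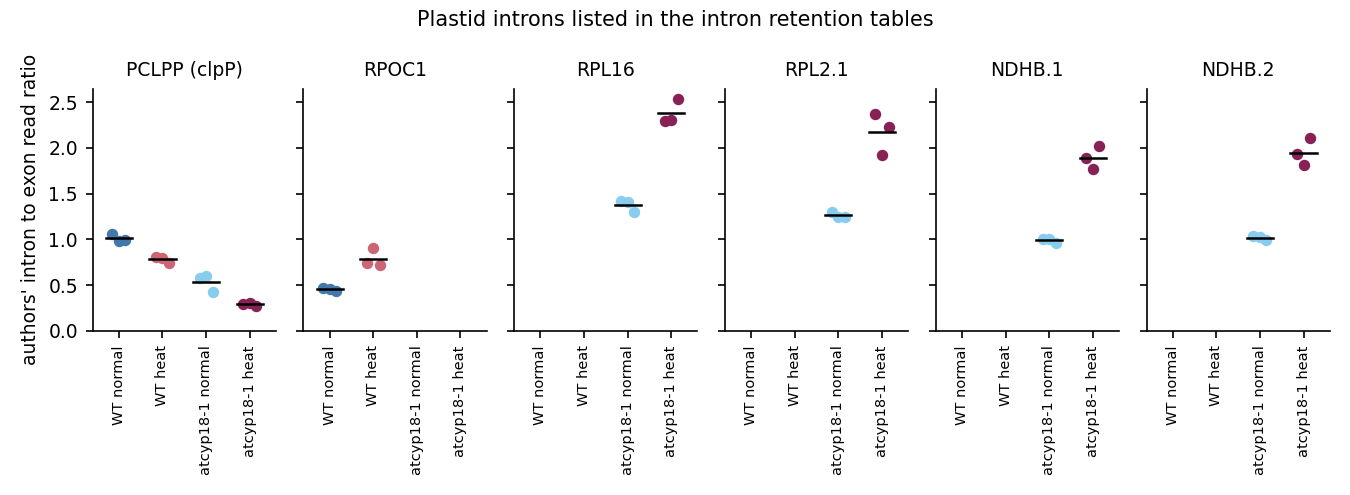
The authors' ratio of intron to exon reads for plastid introns in their retention tables; points are libraries, bars are group means, and groups without points were not listed. The clpP ratio runs from 1.055 in WT normal down to 0.272 in atcyp18-1 heat, and the ratios of the other introns are higher in heat.

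Of the splice-site tables of the authors, 2 plastid junctions were listed, in rpl16 and clpP. The rpl16 junction spans 1056 bases, the length of its annotated intron, but is placed 6 bases downstream along the chromosome, at 81594 to 82649, where its ends read GT and AG on the strand opposite to the gene. The clpP junction spans 515 bases like the second intron but is placed 2 bases upstream, at 70136 to 70650, with GC and AG ends on the gene's strand. Of the 900 distinct junctions listed, 884 (98.2%) have GT or GC with AG ends on either strand. The mean junction reads of rpl16 were 260 in WT normal, 55.3 in WT heat, 146 in atcyp18-1 normal and 13 in atcyp18-1 heat per the authors' deposited table, and those of clpP 5724, 3362, 6409 and 3527. Per 100 counts of the gene these were 2.89, 3.67, 4.75 and 2.93 for rpl16, and 21.3, 26.9, 28.2 and 32.2 for clpP. The listed changes in rpl16, 4.63-fold in WT heat and 10.5-fold in atcyp18-1 heat, are falls. They rest on junction reads not scaled to the counts of the gene, and so hold the change of the whole gene. No exon skipping event of a plastid gene was listed.

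Nuclear genes for plastid gene expression were measured in the same libraries, and their counts stand beside shares of all genes (higher and lower) of 22.9% and 23.4% in atcyp18-1 heat, 11.2% and 12.2% by genotype without heat, and 8.17% and 8.49% with heat. Of 8 sigma factor and phage-type polymerase genes, 3 were called lower and 0 higher in WT heat (median -0.30), where 25.1% of all genes were lower and 25% higher. In the other comparisons 1 was higher and 0 lower in atcyp18-1 heat, 0 higher and 1 lower in atcyp18-1 normal against WT normal, and 0 in either direction in atcyp18-1 heat against WT heat. The falls in WT heat were those of SIG2 (-0.66, adjusted p = 3.3e-05), SIG4 (-0.54, adjusted p = 0.033) and SIG6 (-0.52, adjusted p = 9.1e-06), and SIG6 was also the gene that was lower in the unheated mutant (-0.32, adjusted p = 0.0044). RPOTp, the plastid phage-type polymerase (SCA3 in the table), was higher in heat in the mutant (0.29, adjusted p = 0.0078). Of 12 genes for proteins attached to the plastid-encoded polymerase, 2 were higher and 6 lower in WT heat, 3 and 3 in atcyp18-1 heat, 1 and 9 in atcyp18-1 normal against WT normal (median -0.34), and 0 and 0 between the heated groups. Among them in the unheated mutant PTAC10 (PDE312) was lower by 0.66 log2, PTAC12 (HMR) by 0.65, FSD2 by 0.50 and PTAC2 by 0.49, while TRX z was higher by 0.34.

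Of 15 measured genes for plastid RNA decay, stability and editing, 3 were higher and 6 lower in WT heat (25% and 25.1% of all genes), 7 and 6 in atcyp18-1 heat (22.9% and 23.4%), 1 and 5 in atcyp18-1 normal against WT normal, and 2 and 0 in atcyp18-1 heat against WT heat. In WT heat the largest called change was that of PGR3, a pentatricopeptide repeat protein that stabilises plastid RNAs, at -1.73 (adjusted p = 3.0e-10), followed by HCF152 at -0.69, RNase J (emb2746) at -0.61 and MRL1, which stabilises the rbcL RNA, at -0.55. In the unheated mutant CP31B, an RNA-binding protein, was lower by 0.55 log2 and RNase J by 0.40. The pair that was higher in the heated mutant than in heated WT comprised CSP41B (CRB) at 0.47 and RNase E (RNEE/G) at 0.28. Of 8 genes for splicing of plastid introns, 0 were higher and 5 lower in WT heat, 1 and 3 in atcyp18-1 heat, 0 and 5 in atcyp18-1 normal against WT normal (median -0.41), and 1 and 2 between the heated groups. In the unheated mutant the largest called differences were those of CFM3A (-0.75), OTP51 (-0.73), CRS1 (-0.65) and WTF1 (-0.62). OTP51 was lower in the heated mutant too (-0.94, adjusted p = 7.1e-05), and CFM2 was higher (0.48, adjusted p = 0.0016). Whether any of these differences bears on the plastid transcripts was not tested.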

How the data were processed

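Polyadenylated seed RNA was sequenced in 12 libraries. The deposited table gives counts per transcript (57939 rows, lowest value 1, so apparently raised by 1) and, per library, the same counts divided by 1 factor (normalized signal). The submitters' processing notes name HTSeq and DESeq without versions; aligner, build and strand setting: not given in the sources used here. Splicing tables hold the authors' read signal, intron to exon ratio and p-value, deposited without adjustment. Intron coordinates matched the TAIR10.1 plastid annotation.

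For each gene 1 transcript row was kept, that of the lowest-numbered annotated transcript, and all totals and shares rest on these rows. In 22 genes only assembled transcripts were listed, and 1 of these was kept. After edgeR's filterByExpr, 17296 genes entered edgeR 4.0.16 (R 4.3.3; TMM scaling, quasi-likelihood test, 1 model of 4 group means, Benjamini-Hochberg adjustment over all genes, called under 0.05), which was tested on simulated data. A second fit scaled libraries to their plastid counts. DESeq2 1.42.0 was an alternative. Values in every library are given for the 3 largest called rises and falls per contrast at 5 CPM or more with groups that do not overlap, the 3 highest members per kb and the members called for the interaction; any other member named was picked with its values in view. The members and lists were chosen with earlier results of these data known. The first ndhB copy was added to its list after the data were seen. Single values of some members are not reported here.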

Additional observations from a re-analysis of the deposited data

Results flagged for a closer look

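The heat effect differed between WT and atcyp18-1 by the interaction term of the edgeR fit in 4 plastid genes, and each is listed for that reason. The interaction was 2.76 log2 for RPL33 (adjusted p = 0.0012) and 0.59 for YCF1.2 (adjusted p = 0.044). It was -0.61 for ATPF (adjusted p = 0.031) and -0.67 for RPL20 (adjusted p = 0.0039). The calls of ATPF and YCF1.2 were lost in several alternatives given above. Among these were ATPF without WT normal 1 (adjusted p = 0.102) and YCF1.2 without atcyp18-1 heat 3 (adjusted p = 0.127).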

How the results depend on the processing

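Of 440 gene and contrast values, 2 that were not called turned direction and were then called, both in atcyp18-1 heat against atcyp18-1 normal: psbA by plain library size (-0.18, adjusted p = 0.0324) and rpl33 without atcyp18-1 normal 3 (0.33, adjusted p = 0.0363). DESeq2 lost 4 calls and gained 2, plain library size lost 11 and gained 25, and leaving out the low-count filter lost 9. Members higher in WT heat were 0 with plain library size and 0 without the filter (1 in the report), and interaction calls became 1 higher with either and 1 lower without the filter. Leaving out 1 library at a time, which leaves 2 in an arm and pools the spread, gave 0 to 2 higher in WT heat, 0 to 1 higher in atcyp18-1 heat, and 1 to 2 higher and 1 to 3 lower for the interaction. Relative to the plastid total, leaving psbA out gave 22 higher in atcyp18-1 heat against atcyp18-1 normal and 30 higher in atcyp18-1 normal against WT normal. Leaving out psbA, rbcL and the second copies, chosen after seeing the data, gave 28 and 24 higher in heat (WT and mutant), 37 higher and 28 lower by genotype without heat, 21 and 31 with heat, and 8 lower for the interaction. Of 313 such calls, 10 and 29 turned direction under these totals. Without the filter, 5 were higher in atcyp18-1 heat against WT heat and 16 lower for the interaction; leaving out 1 library gave 5 to 8 and 11 to 33. The log2 ratios of the plastid share without psbA and rbcL, also added after seeing the data, were -1.98 and -1.82 for heat (-1.16 and -0.92 with them) and -0.46 and -0.30 by genotype (-0.09 and 0.16). At an authors' p under 0.01, 0 introns remained in WT heat and 3 in atcyp18-1 heat. The cause was not tested.

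The same-numbered libraries did not deviate together (correlations from -0.086 to 0.105), so they share only a number; a replicate block lost 0 calls and gained 5, with 3 lower for the interaction and 32 lower relative to the plastid total. A share without ribosomal and transfer RNA was not run, as no such rows were measured.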
